A study of Mus musculus with 12 samples.

Results

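The cells described here are tumour macrophages in which RNA of Arg1, Thbs1, Inhba, Mmp19 and Clec4n outweighed RNA of Mrc1, Fcrls, Msr1, C1qa and Siglec1. They were chosen by their own counts: a cell that the authors' deposited annotation calls a macrophage was taken when its summed UMIs (unique molecular identifiers, the tags by which copies of the same captured molecule are counted once) of the first 5 genes exceeded those of the second 5. Of the 24267 annotated macrophages in 6 CD45 libraries, 14698 met the rule, 9443 had the larger second sum and 126 were tied, out of 54955 cells in these libraries and 115612 cells in the whole series. The first kind is called Arg1-side macrophages below and the second Mrc1-side macrophages. Because these counts chose the cells, differences between the sides are given as descriptions with no test.

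The tumours came from 4T1, a mouse mammary carcinoma line used as a model of triple-negative breast cancer. Per the labels, the 5 lines Clone E, Clone M, Clone EM1, Clone EM2 and Clone EM3, each grown from a single cell, and the Parental 4T1 line were placed in the mammary fat pad of female BALB/c mice aged 9 to 11 weeks, immunocompetent hosts of the strain from which the line derives, and no drug or gene edit is labelled. The series was designed to cover epithelial, intermediate and mesenchymal tumour cell states, without a label saying which state each clone has. Every clone is a single clone, and each of the 6 groups is 1 tumour, measured as a CD45 library of bead-enriched leukocytes and a Total library of the dissociated tumour, so there is no replicate tumour and no test between the groups was made. Intervals of shares below are exact 95% intervals, and those of differences between shares combine the exact limits of both shares, which is approximate. All cover counting error only.

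Macrophages in tumours arise largely from blood monocytes that enter the tissue and change their transcription as they mature. Arginase 1, the product of Arg1, breaks down arginine and is a classical product of tumour macrophages, thrombospondin 1 (Thbs1) is a secreted matrix glycoprotein that can activate latent TGF-beta, Inhba encodes the subunit of activin A, Mmp19 a matrix metalloproteinase and Clec4n the fungal pattern receptor dectin-2. On the other side stand the mannose receptor Mrc1, the scavenger receptor Msr1, the sialic acid lectin Siglec1, the complement subunit C1qa and Fcrls, genes typical of settled, phagocytic macrophages.

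Doublets were left out of all values that follow, which left 4395 Arg1-side cells in E and 3735 in EM3, 1107 in EM1 and 2202 in EM2, 978 in M and 1946 in the parental tumour. Arg1-side cells held between 4968542 and 29085590 UMIs per tumour. Their median UMIs per cell lay between 3714 and 6762, below the 6008 to 10151 of Mrc1-side cells, and lower in all 6 tumours. The median mitochondrial percent of UMIs was also lower on the Arg1 side in all 6 tumours (0.111 to 0.306%, against 0.363 to 0.546%). Barcodes of E and EM3 shared 1640 droplet sequences and those of EM1 and EM2 shared 1186, while the other pairs of CD45 libraries shared 60 to 161, which is read here as 4 capture wells, with M and the parental tumour alone; the labels name no wells. Of the Arg1-side cells, 214 shared a droplet sequence between E and EM3 and 42 between EM1 and EM2. The barcodes of such pairs differ in a second part, and whether some cells were assigned to the wrong sample was not tested. Between the inferred wells, the well and the clone cannot be told apart. The second barcode part and the clone cannot be told apart within them either. E, EM1 and the parental tumour share the most frequent sequence of that part, and EM2, EM3 and M share another. EM3 against E, EM2 against EM1 and M against E thus each compare tumours that differ in this sequence.

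The cut divides a continuous range with no gap at the cut, and whether 2 overlapping types lie under it was not tested. In the 6 tumours, 1.95 to 3.72% of macrophages lay within 2 UMIs of the cut and 21.3 to 35.9% lay within 2-fold of it. In Clone E, 45 members exceeded the second sum by only 1 or 2 UMIs and 33 cells fell short by as few, and in Clone M the same counts were 29 and 28. At the other end, 46.2 to 66.5% of Arg1-side cells had a first sum at least 4-fold over the second, after 1 UMI was added to each sum. The median Arg1-side cell of E held 130 UMIs of the first 5 genes and 12 of the second 5. These medians were 68 and 13 in EM1, 73 and 8 in EM2, 171 and 21 in EM3, 79 and 9 in M, and 90 and 13 in the parental tumour. The part of free RNA in these medians was not tested, and 35.1 to 63.4% of T cells had a UMI of C1qa, a gene of the second sum.

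**Figure D1:**
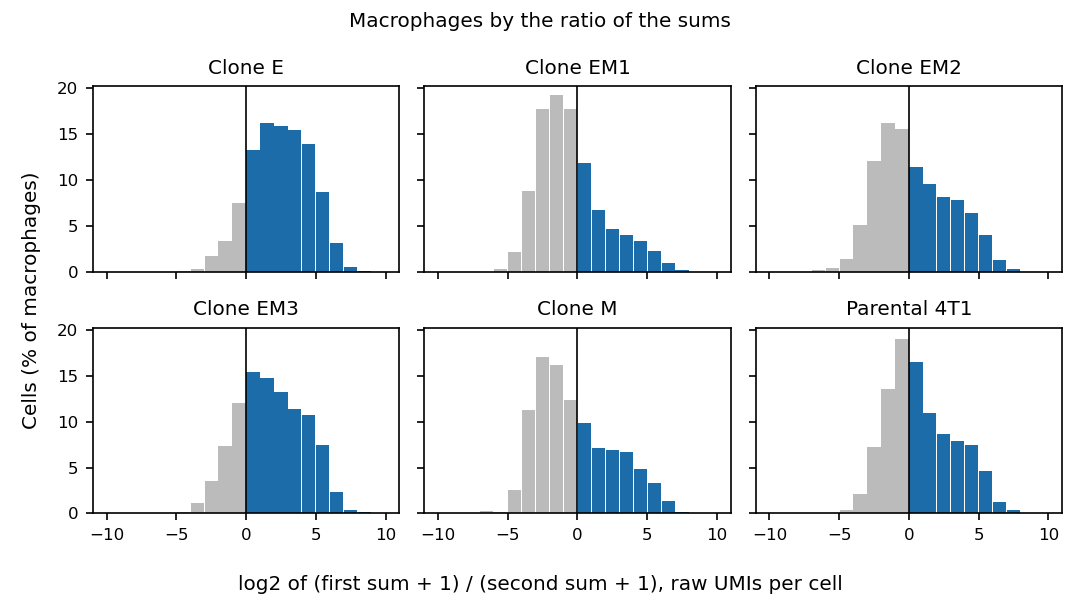
Macrophages of each CD45 library, in percent (vertical axis), by the log2 ratio of the first sum to the second sum of raw UMIs per cell after adding 1 UMI (horizontal axis). Blue bars lie at or above the cut, ties included, and grey bars below; each tumour shows 1 broad distribution, which lies mostly right of the cut in E and EM3 and mostly left of it in EM1 and M.

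The share of macrophages on the Arg1 side differed widely between tumours. In E it was 86.7% (interval 85.7 to 87.6%) and in EM3, which shares barcodes with it, 75.5% (74.2 to 76.6%). EM1 had 33.4% (31.8 to 35.1%), EM2 48.4% (47.0 to 49.9%) and M 39.5% (37.5 to 41.4%). The parental tumour had 57.0% (55.3 to 58.6%), and the mean was 56.7% ± 20.8 (SD, n = 6 tumours). E and EM3 were highest, EM1 and M lowest, and no 2 of these intervals overlapped. The Total libraries, a second set of cells from the same tumours, gave the same order, with 82.0% in E and 58.4% in EM3, 47.1% in the parental tumour, 43.9% in EM2, 32.5% in M and 31.6% in EM1, although EM1 and M then lay within each other's intervals. Every Total share was below that of its CD45 library.

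As a share of all cells of the CD45 library, Arg1-side macrophages were 41.7% in E and 35.3% in EM3, 11.9% in EM1 and 24.8% in EM2, 13.2% in M and 29.4% in the parental tumour. The share of macrophages on the Arg1 side was in M 47.2 percentage points below that of E (interval 45 to 49.3 points). Within the inferred well of E and EM3, EM3 was 11.2 points below E (9.66 to 12.7), and 23.6 points below it in the Total libraries (21.6 to 25.6). Within that of EM1 and EM2, EM2 was 15 points above EM1 (12.8 to 17.2), and 12.3 points above it in the Total libraries (9.06 to 15.4). The directions within these pairs were thus the same in both kinds of library, with sizes that differed for EM3 and E.

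**Figure D2:**
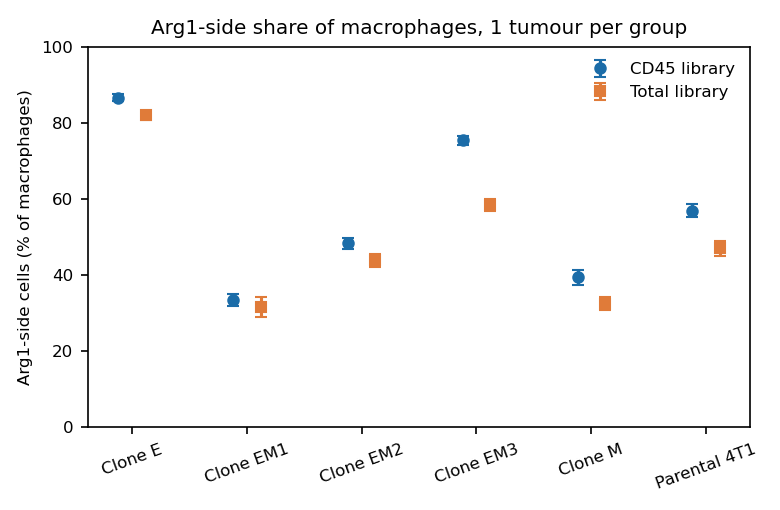
Arg1-side cells as a percent of annotated macrophages (vertical axis) in each tumour, in the CD45 library (circles) and the Total library (squares), with exact 95% intervals for counting error. The CD45 shares run from 33.4% in EM1 to 86.7% in E, and every Total share lies below its CD45 share.

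The order of the tumours was the same at equal depth. With every macrophage thinned to 1000 UMIs, which left out 12 to 31 shallower cells per library, the shares were 84.7% in E and 74.5% in EM3, 33.7% in EM1 and 49.0% in EM2, 39.4% in M and 56.4% in the parental tumour. The first-sum genes were also found in other cells: 12.7 to 74.2% of T cells had a Thbs1 UMI and 7.94 to 52% an Arg1 UMI, at a median of 979 to 1722 UMIs per T cell, most in EM3 and E, and B cells had both. At these shares, a single UMI of either gene does not mark a cell, and the part of free RNA in these UMIs was not tested. In CPM (a gene's summed UMIs in a class of cells, scaled to the same total of 1000000 UMIs in every class), T cells held 109 to 749 CPM of Thbs1 and 67.8 to 391 of Arg1, against 7099 to 12557 and 2643 to 4899 in Arg1-side cells. Other myeloid cells held 619 to 3711 CPM of Thbs1 and 590 to 2769 of Arg1, and dendritic cells 268 to 2225 and 188 to 1162. In the Total libraries, 69.9 to 90.2% of tumour cells had a Thbs1 UMI and 71.0 to 80.7% an Inhba UMI. Subtracting the T cell level of all 10 genes from each macrophage in proportion to its UMIs gave 84.5% in E, 73.3% in EM3, 34.0% in EM1, 48.4% in EM2, 40.2% in M and 57.6% in the parental tumour.

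The 5 genes of the first sum did not contribute alike. Thbs1 stood at 7099 CPM in E and 12557 in EM3, 7528 in EM1 and 10792 in EM2, 11139.8 in M and 9458 in the parental tumour, and Mmp19 at 8637 CPM in E and 7331 in EM3, 5318 in EM1 and 6065 in EM2, 2853 in M and 4733 in the parental tumour. Arg1 stood at 4313 CPM in E and 4899 in EM3, 2717 in EM1 and 2643 in EM2, 3587 in M and 3800.0 in the parental tumour. Mmp19 was thus highest in E and lowest in M, Thbs1 highest in EM3 and lowest in E, and Arg1 highest in EM3 and lowest in EM2. These levels rest on counts that chose the cells and carry no test.

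Mmp19 was the most abundant of the 5 in 46.2% of Arg1-side cells of E, whereas Thbs1 led in each other tumour, in 51.7% of cells in EM3, 42.5% in EM1, 52.1% in EM2, 55.0% in M and 48.4% in the parental tumour. Inhba varied most, with 2808 CPM in E and 1239 in EM3, 984 in EM1 and 809.6 in EM2, 417 in M and 657 in the parental tumour. It made up 11.7% of the first-sum UMIs in E and 2.21% in M. At equal depth of 1000 UMIs, 58.1% of Arg1-side cells of E had an Inhba UMI, against 36.5% in EM3, 27.7% in EM1, 26.6% in EM2, 16% in M and 23.9% in the parental tumour. In T cells that share was 0.734 to 29.5% without thinning. Clec4n hardly separated the sides, with 853 to 1345 CPM on the Arg1 side and 848 to 1202 CPM on the Mrc1 side, so that the label rests on the other 4 genes.

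In the mm10 build (GRCm38, GENCODE vM21) Arg1 lies at chr10:24915221-24927484 on the minus strand, Mmp19 at chr10:128790910-128800824, Thbs1 at chr2:118111876-118127133, Inhba at chr13:16011851-16031621 and Clec4n at chr6:123229843-123247021, these 4 on the plus strand.

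The authors' reference-based cell labels, made with the ImmGen collection of sorted mouse immune cells, were not used by the rule, although they rest on the same cells' counts. Arg1-side cells were mostly labelled Macrophages, but 10.8% in E, 7.39% in EM3, 14.4% in EM1, 13.3% in EM2, 16.4% in M and 8.89% in the parental tumour were labelled Monocytes. On the Mrc1 side the Monocytes label was given to 0.202 to 0.762% of cells. A further 0.681 to 2.45% of Arg1-side cells were labelled Neutrophils and none carried another label. Arg1-side cells with the Monocytes label had little RNA of some second-sum genes, with 60 to 193 CPM of C1qa and 29.4 to 115 CPM of Mrc1, against 2287 to 3815 CPM and 826 to 1251 CPM in those labelled Macrophages. Since the rule compared these genes, it bears on where labelled cells fell, and the shares of the label are a description with no test.

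The 2 labels divided the rule's own genes. Thbs1 stood at 15385 to 25719.9 CPM in Arg1-side cells labelled Monocytes and at 6127 to 11762 CPM in those labelled Macrophages, and was higher in the former in all 6 tumours (median log2 ratio 1.23). Inhba was also higher in the monocyte-labelled cells of all 6 tumours (median log2 ratio 0.77). Arg1 ran the other way in all 6 tumours, with 360.2 to 1827 CPM in cells labelled Monocytes and 2891 to 5123 CPM in cells labelled Macrophages (median log2 ratio -2.09), and so did Mmp19 (-1.11). Counts of these genes chose the cells, so a member low in Arg1 needed enough RNA of others of the first sum to exceed its second sum. The rule set no level for any single gene, and the pooled levels do not show which genes occur together in 1 cell.

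Because the labels rest on these cells' own counts, the levels of monocyte genes by label are a description with no test. Of the 10 monocyte markers, 8 were higher in monocyte-labelled than in macrophage-labelled Arg1-side cells in all 6 tumours. F13a1 was higher in 3 of 6 (median log2 ratio 0.35), and fibronectin (Fn1) was lower in all 6, with 1808 to 3454 CPM in the former and 4517 to 10183 CPM in the latter (-1.42). Ly6c2, which encodes the surface protein of inflammatory monocytes, stood at 329.5 to 1075 CPM in monocyte-labelled cells, at 22.5 to 139.8 CPM in macrophage-labelled cells of the Arg1 side and at 1.51 to 13.8 CPM on the Mrc1 side. Plac8, a gene of immature myeloid cells, stood at 1713 to 3247 CPM, 136 to 325 CPM and 17.9 to 88.2 CPM in the same order. Versican (Vcan), a proteoglycan made by monocytes, stood at 407 to 1214 CPM, 54.7 to 202 CPM and 4.01 to 11 CPM. For all 3 genes, macrophage-labelled Arg1-side cells were above Mrc1-side cells in all 6 tumours. Monocyte-labelled cells were shallower, with medians of 2897 to 4818 UMIs against 3950 to 7138.5 in macrophage-labelled ones.

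**Figure D3:**
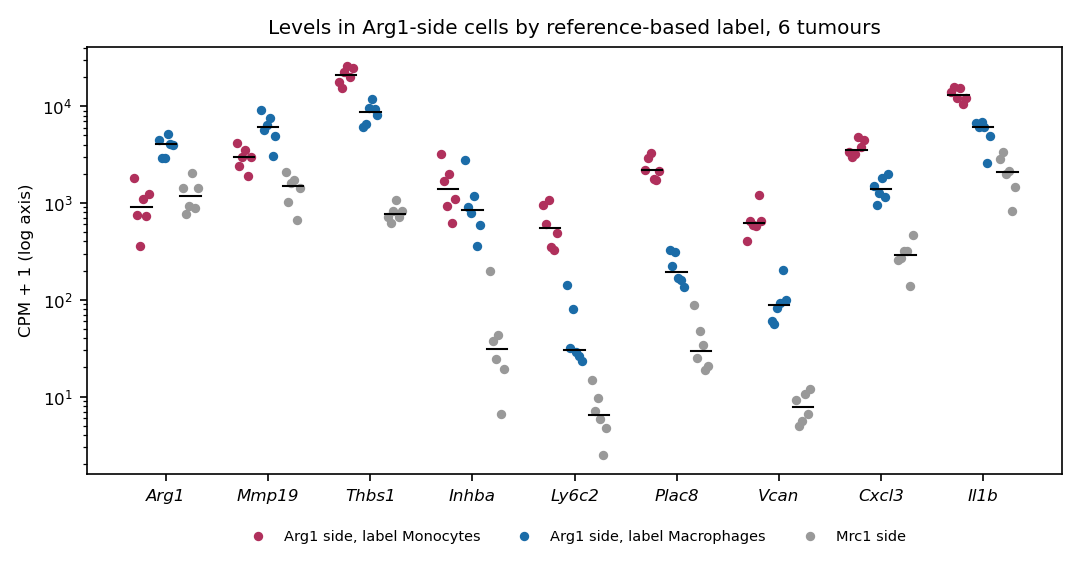
CPM + 1 on a log axis for 9 genes in Arg1-side cells labelled Monocytes (red), Arg1-side cells labelled Macrophages (blue) and Mrc1-side cells (grey); each point is 1 tumour and each bar the median of 6. Against Arg1-side cells labelled Macrophages, those labelled Monocytes are lower in Arg1 and Mmp19 and higher in Thbs1, Inhba, Ly6c2, Plac8, Vcan, Cxcl3 and Il1b in all 6 tumours. Sides and labels both rest on the same cells' counts.

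Beyond the rule's 10 genes, 4074 genes reached a mean of 50 CPM on either side. Ratios were taken within each tumour as log2 of (CPM + 10), which understates the change of low genes. Of these genes, 46 (1.13%) were at least 2-fold higher and 27 (0.663%) at least 2-fold lower on the Arg1 side in every tumour, and the median log2 ratio of all 4074 was -0.04. In total, 1139 (28%) were higher and 1557 (38.2%) lower in all 6 tumours. With size factors from the median of gene-wise ratios in place of library totals, the median moved to 0.09 and the counts to 64 (1.57%) higher and 16 (0.393%) lower. Since the same cells' counts made the sides, these numbers describe the cut. Of the 46, 27 averaged under 50 CPM on the Mrc1 side, and 10 of the 27 lower genes under 50 CPM on the Arg1 side. Such genes entered the comparison only through the side where they are high and had to differ, which bears on the counts of list members below as well. In the Total libraries all 46 and all 27 had the same sign in all 6 tumours, and 33 of the 46 and 11 of the 27 were again at least 2-fold different in all 6.

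The log2 ratios, taken after the same CPM was added on both sides, understate the change of low genes. Vcan, for example, averaged 159 CPM on the Arg1 side and 7.13 CPM on the Mrc1 side. By the median of these ratios, the largest excess belonged to Slpi, which encodes a secreted inhibitor of neutrophil elastase. It stood at 1511 CPM in E and 1556 in EM3, 1013 in EM1 and 1596 in EM2, 1199 in M and 1715 in the parental tumour on the Arg1 side and at 47.9 to 178 CPM on the Mrc1 side (median log2 ratio 3.50, range 3.06 to 4.38). Syndecan-1 (Sdc1), a cell-surface heparan sulfate proteoglycan, stood at 1158 CPM in E and 1006 in EM3, 664 in EM1 and 863 in EM2, 822 in M and 771 in the parental tumour, against 38.5 to 146 CPM (median log2 ratio 3.46). For both genes the lowest Arg1-side tumour was several-fold above the highest Mrc1-side tumour. Slpi was also high in other classes, with averages of 5511 CPM in B cells and 1827 CPM in granulocytes. Sdc1 averaged 881 CPM in Arg1-side cells and between 48.7 and 279.5 CPM in Mrc1-side and tied macrophages, other myeloid cells, granulocytes, dendritic cells, T cells and B cells.

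Of the 8 monocyte markers tested outside the rule, 5 were at least 2-fold higher on the Arg1 side in every tumour and none was lower, beside 1.13% and 0.663% of all genes tested. All 5 averaged under 50 CPM on the Mrc1 side and so passed the limit only through the side where they are high; the count supports nothing. Besides Plac8 (median log2 ratio 3.33), Vcan (3.0) and Ly6c2 (2.70), these were haptoglobin (Hp, 2.69) and the chitinase-like Chil3 (1.97). Vcan and Chil3 averaged highest on the Arg1 side among the classes compared, but the others did not. Ly6c2 averaged 105 CPM on the Arg1 side, 410 in B cells and 122 in T cells, and Plac8 413, 748 and 469. Hp averaged 158 CPM on the Arg1 side and 812 in granulocytes. The chemokine receptor Ccr2, through which monocytes are drawn from the blood, differed less (0.55, higher in all 6), and F13a1 was higher in 3 of 6. The named genes also include the calcium-binding S100a6 (2.79) and S100a4 (2.76), coagulation factor X (F10, 2.45), the Ly6c2 neighbour Ly6c1 (2.42), which is so alike in sequence that the division of counts between the pair is uncertain, the chondroitin sulfotransferase Chst11 (2.19) and the sphingomyelin synthase Sgms2 (2.10). Each of these averaged higher in some other class, as S100a6 did with 1960 CPM in granulocytes against 334 on the Arg1 side.

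Without the monocyte- and neutrophil-labelled cells, that is, among cells labelled Macrophages on both sides, 39 genes were at least 2-fold higher in all 6 tumours and 18 lower, of which 38 and 18 belonged to the 46 and 27 above. Slpi had a median log2 ratio of 3.0 between macrophage-labelled Arg1-side cells and the Mrc1 side, and Sdc1 3.39. That comparison was chosen after the data had been seen.

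Of 26 inflammatory cytokines, chemokines and their regulators tested, 4 were at least 2-fold higher on the Arg1 side in every tumour and 2 lower, beside 1.13% and 0.663% of all genes tested, with a median of 0.40. Scaled by gene-wise ratios instead, 5 were higher and 2 lower to that extent, beside 1.57% and 0.393%. Il1b, the gene of interleukin-1 beta, stood at 7272 CPM in E and 6619 in EM3, 7144 in EM1 and 7410.4 in EM2, 3866 in M and 5474 in the parental tumour, against 833 to 3353 CPM on the Mrc1 side. The neutrophil-attracting chemokine Cxcl3 stood at 1675 CPM in E and 1994 in EM3, 1179.6 in EM1 and 1458 in EM2, 1601 in M and 2215 in the parental tumour, against 138 to 461 CPM. Cyclooxygenase-2 (Ptgs2), which starts prostaglandin synthesis, stood at 1496 CPM in E and 1109 in EM3, 984 in EM1 and 1195 in EM2, 596 in M and 983 in the parental tumour, against 44.1 to 497 CPM. Cxcl2 (median log2 ratio 1.38) completed the 4, and Cxcl1 (1.36) and Il6 (1.36) were higher in all 6 tumours without reaching 2-fold in each. Il1b averaged 6298 CPM on the Arg1 side, 6821 in dendritic cells and 5185 in granulocytes, and Cxcl2 5523, 1922 and 8810. Cxcl3 and Ptgs2 averaged highest on the Arg1 side among the classes compared. The 2 lower genes were the monocyte-attracting chemokines Ccl8 (-2.16) and Ccl12 (-2.10).

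Of 20 genes of matrix proteases, their inhibitors and matrix proteins tested outside the rule, 4 were at least 2-fold higher and 1 lower in every tumour, beside 1.13% and 0.663% of all genes tested, with a median of 0.46. Of the 4, 3 averaged under 50 CPM on the Mrc1 side. These counts became 6 higher and 1 lower with size factors from gene-wise ratios, beside 1.57% and 0.393%. With library totals the 4 higher ones were Vcan, the plasminogen activator inhibitor Serpinb2 (median log2 ratio 2.09) and the metalloproteinase inhibitor Timp1 (1.70), and the urokinase receptor Plaur (1.08), while the elastase Mmp12 (1.36) was higher in all 6 tumours and just under 2-fold in 1. The lower one was Plau, the urokinase plasminogen activator, at 212 CPM in E and 199.5 in EM3, 253 in EM1 and 227 in EM2, 306 in M and 203 in the parental tumour on the Arg1 side and 484 to 821 CPM on the Mrc1 side. Of 6 C-type lectin receptors tested outside the rule, 2 were higher in this sense, beside 1.13% of all genes tested: Clec4d (median log2 ratio 1.58) and Clec4e (1.53), the receptors also called MCL and Mincle. Both averaged higher in granulocytes, at 4508 and 1503 CPM, than in Arg1-side cells, at 1140 and 668 CPM.

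No gene of the glycolysis and hypoxia list was at least 2-fold higher in all tumours, but 15 of 22 tested were higher in all 6, beside 28% of all tested genes, and Hk2 alone was lower in all 6. With size factors from gene-wise ratios, 20 were higher in all 6, beside 44.7% of all genes, none was lower and 1 was at least 2-fold higher in every tumour, beside 1.57%. The largest differences were those of the stress gene Ddit4 (median log2 ratio 1.28), the lactate exporter Slc16a3 (1.20) and Vegfa (0.84), and the median of the list was 0.25. Vegfa stood at 1792 CPM in E and 1897 in EM3, 1702 in EM1 and 1781 in EM2, 1592 in M and 1556 in the parental tumour, against 863 to 1195 CPM. Among genes that handle arginine, the synthetic enzyme Ass1 differed most (median log2 ratio 1.42), followed by the transporter Slc7a2 (0.66) and Arg2 (0.59); of the 8 tested, 4 were higher and 3 lower in all 6 tumours, beside 28% and 38.2% of all genes. With size factors from gene-wise ratios, 4 were higher and 1 lower, beside 44.7% and 24%, and 1 was at least 2-fold higher in every tumour, beside 1.57%. Inducible nitric oxide synthase, Nos2, lay at 39.8 CPM in E and 16.6 in EM3, 35.8 in EM1 and 20.5 in EM2, 14.1 in M and 19.8 in the parental tumour, below the level needed for the comparison.

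On the lower side, 9 of 18 genes of resident and scavenger macrophages tested outside the rule were at least 2-fold lower in every tumour, beside 0.663% of all genes tested, none was higher in that sense, and the median was -1.16; 2 of the 9 averaged under 50 CPM on the Arg1 side. Size factors from gene-wise ratios left 6 lower to that extent, beside 0.393%, and a median of -1.05. Gas6, a ligand of the receptors that mediate uptake of dying cells, stood at 35.7 CPM in E and 87.3 in EM3, 85.3 in EM1 and 69.5 in EM2, 105 in M and 87.3 in the parental tumour, against 141 to 426 CPM on the Mrc1 side. The haemoglobin scavenger receptor Cd163 (median log2 ratio -1.52), the folate receptor Folr2 (-1.51) and the scavenger receptor Stab1 (-1.40) were lower too. The adhesion molecule Vcam1 (-1.64), ceruloplasmin (Cp, -1.59), the transcription factor Bhlhe41 (-1.58), the prostaglandin D synthase Hpgds (-1.42) and the nuclease Dnase1l3 (-1.43) also belong to the named genes, together with Npl (-1.59), Tmem86a (-1.46), C6 (-1.46) and Cbr2 (-1.43). Of these, Cp, C6 and Dnase1l3 were lower by less than 2-fold in the parental tumour.

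**Figure D4:**
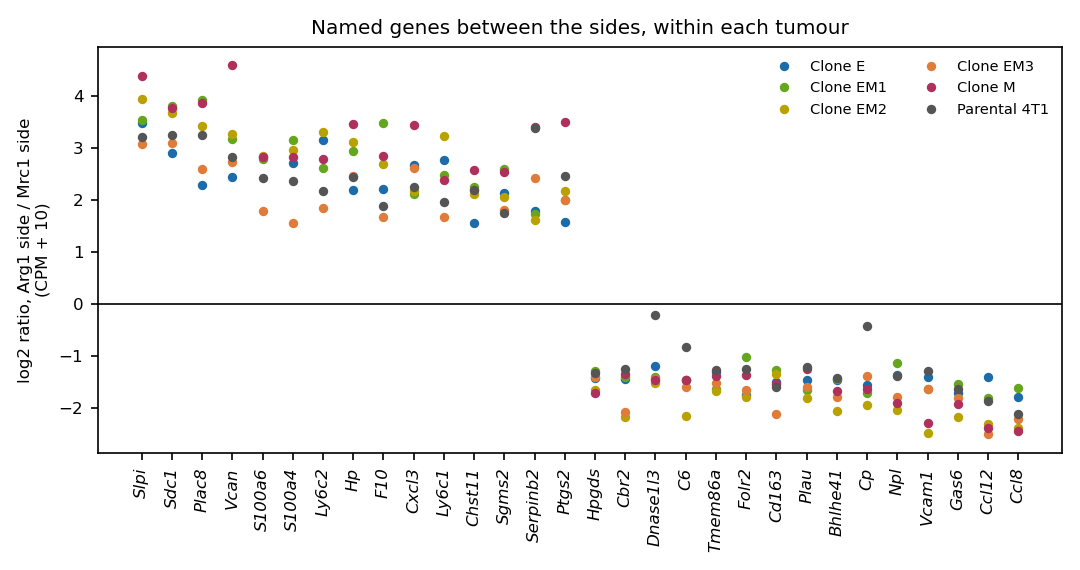
Log2 ratio of Arg1-side to Mrc1-side cells of the same tumour (vertical axis, CPM + 10) for the 15 genes with the highest and the 15 with the lowest median among those of 1 sign in all 6 tumours (horizontal axis); each point is 1 tumour. Slpi and Sdc1 lead with medians of 3.50 and 3.46, and Ccl8 stands at the other end with -2.16.

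Promoters, taken as 250 bases before to 50 bases after a start from the RefSeq table on GRCm38.p6, were searched on both strands for 3 motifs: the AP-1 site TGANTCA, the core of the hypoxia response element ACGTG and the C/EBP motif TTGCNNAA. Of the 5 genes of the first sum, Inhba has an entry in that table. The promoters of Inhba (chr13:16011601-16011900), of Sdc1 (chr12:8771146-8771445) and of Ptgs2 (chr1:150099781-150100080), all on the plus strand, are shown as examples of windows that hold a C/EBP match, which is in capitals (on the minus strand in Inhba and Sdc1, on both strands in Ptgs2). CACGTG, in capitals near the end of Ptgs2, holds the hypoxia core on both strands, and no match of different motifs overlapped in these windows. Inhba was chosen as a gene of the rule, and Sdc1 and Ptgs2 from the 5 of the 15 genes with the largest excess on the Arg1 side whose windows hold the C/EBP letters; the others are Plac8, Serpinb2 and Slpi.
Inhba: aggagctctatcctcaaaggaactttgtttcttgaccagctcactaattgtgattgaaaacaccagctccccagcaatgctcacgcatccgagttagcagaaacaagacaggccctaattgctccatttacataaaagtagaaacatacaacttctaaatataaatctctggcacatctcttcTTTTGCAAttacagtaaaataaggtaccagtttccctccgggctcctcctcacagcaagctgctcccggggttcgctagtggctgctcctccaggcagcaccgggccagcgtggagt
Sdc1: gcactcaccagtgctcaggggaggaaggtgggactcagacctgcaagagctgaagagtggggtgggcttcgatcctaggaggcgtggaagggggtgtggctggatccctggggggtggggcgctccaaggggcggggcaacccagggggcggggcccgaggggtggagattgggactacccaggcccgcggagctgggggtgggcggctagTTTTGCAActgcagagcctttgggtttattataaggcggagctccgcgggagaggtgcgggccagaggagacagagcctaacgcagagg
Ptgs2: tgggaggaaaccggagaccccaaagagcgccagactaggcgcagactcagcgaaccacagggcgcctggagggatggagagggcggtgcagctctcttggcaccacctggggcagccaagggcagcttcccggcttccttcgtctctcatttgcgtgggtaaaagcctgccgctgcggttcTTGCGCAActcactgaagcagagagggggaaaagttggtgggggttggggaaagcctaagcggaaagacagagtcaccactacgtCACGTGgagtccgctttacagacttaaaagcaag
The C/EBP letters occurred in 10.8% of all 32851 promoters of this length and in 6 of 23 promoters of the 15 genes with the largest excess on the Arg1 side, of which 14 had an entry. The ACGTG core occurred in 19.6% of all promoters and in 10 of those 23, and the AP-1 letters in 7.81% and in 4 of 23. In the 14 promoters of the 15 genes lowest on the Arg1 side, of which 12 had an entry, the C/EBP letters occurred in 2, the ACGTG core in 4 and the AP-1 letters in 2. The 23 windows include more than 1 start for some genes, and share sequence where starts lie close. A match is a description of the letters and not a measured site.

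General macrophage markers were present on both sides. Of 11 tested outside the rule, 2 were higher in all 6 tumours and 7 lower, beside 28% and 38.2% of all genes, and 6 were lower with size factors from gene-wise ratios, beside 24%. Lyz2 stood at 3951 CPM in E and 5663 in EM3, 4236 in EM1 and 5068 in EM2, 5029 in M and 6464 in the parental tumour on the Arg1 side, against 4964 to 8302 CPM, and the growth factor receptor Csf1r at 769.8 CPM in E and 903 in EM3, 962 in EM1 and 948 in EM2, 822 in M and 906 in the parental tumour, against 1205 to 1593 CPM. The lipopolysaccharide co-receptor Cd14, 1 of the 2 higher genes, stood at 11106 CPM in E and 11151 in EM3, 11005 in EM1 and 12059 in EM2, 9749 in M and 10109.9 in the parental tumour, against 4097 to 6806 CPM. Of the 9 genes of MHC class II presentation and costimulation tested, 1, the costimulatory Cd80 (median log2 ratio 1.06), was higher and 3 were lower in all 6 tumours, and of 11 interferon response genes none was higher and 6 were lower in all 6, beside 28% and 38.2% of all genes. With size factors from gene-wise ratios, 2 genes of the class II and costimulation list, which includes Cd80, were higher and 2 lower, and 6 interferon response genes lower, beside 44.7% and 24% of all genes.

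Markers of other cells were low but not equal on the sides. The 10 T and NK cell markers summed to 154 to 245 CPM in Arg1-side cells and 64.8 to 114 in Mrc1-side cells, of which Il7r alone gave 124 to 225 CPM on the Arg1 side. The 10 granulocyte markers summed to 1236 to 1756 CPM against 639 to 1675, the 8 tumour cell markers to 30.4 to 65.4 against 12.2 to 44.0, the 6 B cell markers to 4.07 to 28.6 against 8.05 to 46.3, and the 7 fibroblast markers to 1.34 to 5.19 against 1.73 to 5.53. The 10 dendritic cell markers summed to 43.5 to 116 CPM on the Arg1 side against 18.5 to 42.2, and the 6 endothelial cell markers to 66.6 to 113 against 31.1 to 88.3. Within tumours, the T and NK, granulocyte, tumour cell, dendritic and endothelial sums were higher on the Arg1 side in all 6. The B cell sum was lower there in all 6, and the fibroblast sum differed in sign between tumours. No marker list was wholly at 0. Their part in the differences between the sides was not tested, nor was that of the lower UMI counts of Arg1-side cells.

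By the likeness of levels over 48 points (8 annotated classes or sides in each of 6 tumours, which share libraries and depth), the genes most like the summed first 5 included the Fc receptor-like Fcrlb (Pearson's r = 0.926), Vegfa (0.915), the chemokine Ccl9 (0.914), podoplanin (Pdpn, 0.914), thrombomodulin (Thbd, 0.904), the adenosine receptor Adora2b (0.892) and Rai14 (0.883). Thbd stood at 991 CPM in E and 1249 in EM3, 568 in EM1 and 938 in EM2, 898 in M and 786 in the parental tumour in Arg1-side cells. It averaged 905 CPM there, 606 in tied macrophages, 413 in other myeloid cells and 231 on the Mrc1 side. The first sum also cut the macrophages into sides, so these r values are a description with no test. A high r need not mean a large gap between the sides. Pdpn averaged 898 CPM on the Arg1 side, 657 on the Mrc1 side and 42.1 in T cells, and Rai14 173, 111 and 21.4.

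Within the Arg1 side, gene levels also differed between tumours, a contrast the rule did not use except for its own genes. With 1 tumour per group and separate inferred wells, clone M against clone E is the value of 2 libraries, with no replicate check. Of 4047 genes with at least 50 CPM in either, 74 (1.83%) were at least 2-fold higher in M and 96 (2.37%) at least 2-fold lower, with a median log2 ratio of 0.13. With size factors from gene-wise ratios the counts were 43 (1.08%) higher and 140 (3.5%) lower and the median -0.11. In the counts with library totals, 41 of the 74 were under 50 CPM in E and 43 of the 96 under 50 CPM in M, and passed the limit only through the other tumour. In the Total libraries 167 of these 170 had the same sign and 125 again differed at least 2-fold. Ratios of M over E below are log2 values of (CPM + 10). The 3 exceptions were Ccl8 (-2.03 in the CD45 and 0.06 in the Total libraries) and a pair of features marked as deprecated.

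Genes of MHC class II presentation were lower in M. Of 9 genes of that list tested, 6 were at least 2-fold lower, beside 2.37% of all genes tested, none was higher, and the median log2 ratio was -1.57. The class II beta chain H2-Ab1 stood at 5395 CPM in E and 3834 in EM3, 5293 in EM1 and 4393 in EM2, 1535 in M and 1632 in the parental tumour. H2-Eb1, the beta chain gene of the other class II molecule, stood at 8205 CPM in E and 5727 in EM3, 8179 in EM1 and 6300.1 in EM2, 2033 in M and 2346 in the parental tumour, and the invariant chain Cd74, which escorts class II molecules, at 16989 CPM in E and 13021 in EM3, 17862 in EM1 and 14942 in EM2, 5620.2 in M and 7071 in the parental tumour. For these genes M and the parental tumour were low and the other 4 tumours high, with no overlap. The peptide exchange genes H2-DMb1 (log2 ratio of M over E -1.84) and H2-DMa (-1.35) were lower as well, while the costimulatory Cd80 (-0.12) and Cd86 (-0.11) lay near the level of E. Mrc1-side cells showed the same contrast for H2-Ab1 (-1.85) and Cd74 (-1.60). In dendritic cells H2-Ab1 averaged 9747 CPM and Cd74 25939, against 3680 and 12584 in Arg1-side cells.

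Of 9 interferon response genes tested, 5 were at least 2-fold lower in M and none at least 2-fold higher, beside 2.37% and 1.83% of all genes tested, with a median of -1.10, and 3 of the 5 were under 50 CPM in M; over all 23 genes of the list in the tables, whatever their level, 6 were lower and 2 higher. Rsad2 had a log2 ratio of M over E of 0.92 (Total 1.08), at 87.4 CPM in E and 117 in EM3, 76.9 in EM1 and 77 in EM2, 174 in M and 71 in the parental tumour. The interferon gamma-induced chemokine gene Cxcl9, whose product draws activated T cells, stood at 168 CPM in E and 159 in EM3, 330.5 in EM1 and 295 in EM2, 6.12 in M and 25.9 in the parental tumour, and at 40.8 to 629 CPM on the Mrc1 side. Its log2 ratio of M over E was -3.46, but -1.57 in the Total libraries. The peptide transporter Tap1 (-1.59, Total -1.51), the guanylate-binding protein Gbp2 (-1.49, Total -0.95) and the ubiquitin-like Isg15 (-1.50, Total -1.25) were lower too. The checkpoint ligand gene Pdcd1lg2, which encodes PD-L2, stood at 206 CPM in E and 138 in EM3, 117 in EM1 and 55.2 in EM2, 9.64 in M and 19.9 in the parental tumour (M over E -3.46, Total -3.21). Cd274, which encodes PD-L1, stood at 578 CPM in E and 446 in EM3, 356 in EM1 and 368 in EM2, 172 in M and 223 in the parental tumour (M over E -1.69, Total -1.78). M and the parental tumour were the lowest for Pdcd1lg2, Cd274, Cxcl9, Tap1 and Gbp2. Pdcd1lg2 averaged 494 CPM in dendritic cells, against 90.8 in Arg1-side cells.

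Other genes lowest in M relative to E were the scaffold Akap5 (-2.85), the cytokine-induced inhibitor Cish (-2.79), Plet1 (-2.77), the cell fusion gene Dcstamp (-2.54), the lectin Mgl2 (-2.28), Plxdc2 (-2.23), the bridging protein of apoptotic cell uptake Mfge8 (-2.13) and Fgl2 (-2.12). All of these but Plxdc2 averaged higher in dendritic cells than in Arg1-side cells, as Plet1 did with 1820 against 20.3 CPM and Mgl2 with 865 against 149. The 10 dendritic cell markers summed to 79.0 CPM in Arg1-side cells of M and 68.1 in those of E. The part of dendritic cell RNA in these values was not tested. Of 25 inflammatory genes, 7 were at least 2-fold lower and 1 higher, beside 2.37% and 1.83% of all genes, and 3 of the 7 were under 50 CPM in M, with Il6 (-1.78, Total -1.95) and Ptgs2 (-1.31, Total -0.97) among the lower. Of 8 genes that handle arginine, Slc7a2 (-1.63) and Odc1 (-1.23) were at least 2-fold lower and none was higher. When scaled by gene-wise ratios, 6 of the 9 interferon response genes, 8 of 26 inflammatory genes and 3 of the 8 arginine genes were at least 2-fold lower in M, beside 3.5% of all genes.

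Genes higher in M included Mmp9, a gelatinase, at 13.3 CPM in E and 45.5 in EM3, 57.4 in EM1 and 50.3 in EM2, 228 in M and 171 in the parental tumour (M over E 3.35, Total 2.65). Mmp9 averaged 1227 CPM in granulocytes and 639.9 in other myeloid cells, and granulocytes were 51.1% of the CD45 library in M and 24.4% in E. The 10 granulocyte markers summed to 1617 CPM in Arg1-side cells of M and 1619.7 in those of E, and the part of granulocyte RNA in the Mmp9 value was not tested. Of 18 genes of the resident and scavenger list, 8 were at least 2-fold higher in M and 3 lower, beside 1.83% and 2.37% of all genes, with a median of 0.67; 4 of the 8 were under 50 CPM in E and 2 of the 3 under 50 CPM in M. Folr2 stood at 18.6 CPM in E and 76.2 in EM3, 57.6 in EM1 and 62.5 in EM2, 144 in M and 129 in the parental tumour, and platelet factor 4 (Pf4) at 162 CPM in E and 348 in EM3, 242 in EM1 and 229 in EM2, 763 in M and 527 in the parental tumour. Cbr2 (1.97), Cd163 (1.39), Stab1 (1.38) and Gas6 (1.33) were higher, and Mgl2, Ccl8 and Axl (-1.49) lower. The ficolin Fcna (2.37), the sphingosine phosphate receptor S1pr1 (2.22), the coagulation factor F13a1 (2.18), Vcan (1.93), the gap junction gene Gja1 (1.92) and Pid1 (1.87) completed the 10 highest. Of 9 monocyte markers tested, 2 were at least 2-fold higher in M, F13a1 and Vcan, and 2 were lower, Chil3 among them, beside 1.83% and 2.37%. For Folr2, Pf4 and F13a1, E was the lowest and M the highest of the 6 tumours.

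**Figure D5:**
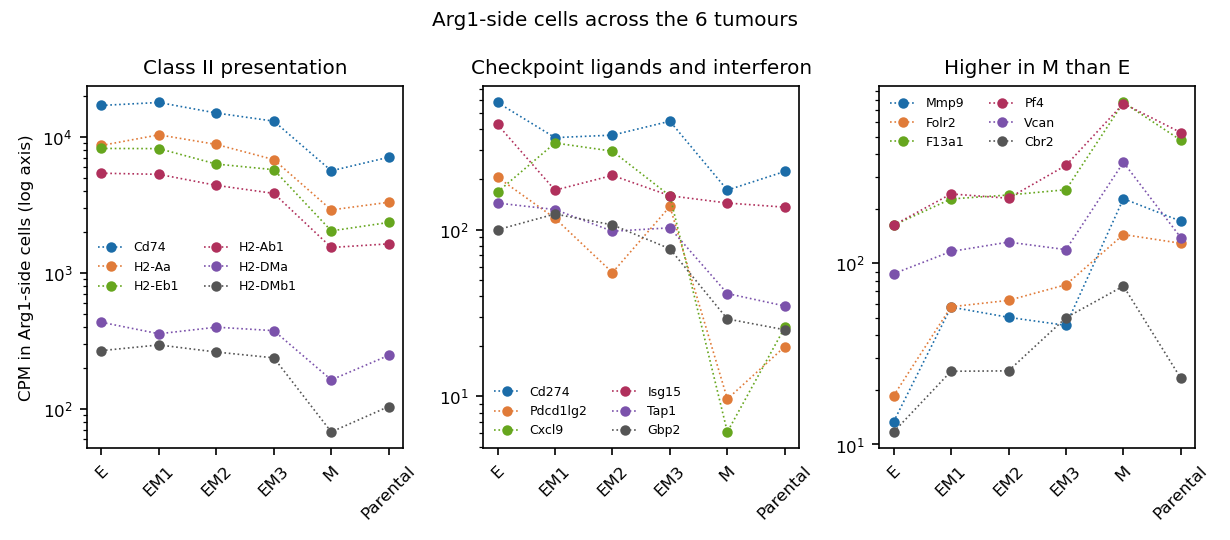
CPM in Arg1-side cells on a log axis for class II genes (left), checkpoint ligand and interferon response genes (middle) and genes higher in M than E (right) in the 6 tumours; each point is 1 tumour and dotted lines only join the points of a gene. H2-Ab1 runs from 5395 CPM in E to 1535 in M, while Mmp9 runs from 13.3 to 228.

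EM3 and E are 1 of the pairs that share barcodes. Of 3737 genes tested, 17 (0.455%) were at least 2-fold higher in EM3 and 25 (0.669%) lower, with a median of 0.04. Here 11 of the 17 were under 50 CPM in E and 12 of the 25 under 50 CPM in EM3. Such genes passed the limit only through the other tumour. In the Total libraries 37 genes were higher and 52 lower, of which 12 and 15 were among the CD45 ones. Alox15, which encodes a lipoxygenase, stood at 10.6 CPM in E and 83.3 in EM3, 13.7 in EM1 and 12.3 in EM2, 16.5 in M and 50.7 in the parental tumour (log2 ratio of EM3 over E 2.18, Total 3.30). Igfbp4 (1.62), the lysosomal sulfatase Arsb (1.67), Fcna (1.66), Folr2 (1.59), Cbr2 (1.47), Nxpe5 (1.33) and Pls3 (1.25) were also among the highest. Of 17 resident and scavenger genes tested, 5 were at least 2-fold higher in EM3 and none was lower, beside 0.455% and 0.669% of all genes. Of the 5, 3 were under 50 CPM in E. The count was 4 of 16 higher with size factors from gene-wise ratios, beside 0.403%.

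The protease gene Adamdec1 stood at 113 CPM in E and 19.1 in EM3, 71.2 in EM1 and 9.16 in EM2, 24.7 in M and 32.7 in the parental tumour (EM3 over E -2.08, Total -1.38), and Chil3 at 253 CPM in E and 58.2 in EM3, 20.3 in EM1 and 30.1 in EM2, 94.7 in M and 34.2 in the parental tumour (-1.95, Total -2.98). Spon1 (-2.02), Ly6c2 (-1.97), Ly6c1 (-1.71), Plet1 (-1.90), complement factor B (Cfb, -1.48), Isg15 (-1.37), Net1 (-1.35) and Fzd7 (-1.33) were the others lowest in EM3 relative to E. The class II list had none of 9 genes past 2-fold in EM3 over E, with a median of -0.35, beside 6 of 9 and -1.57 for M over E; both contrasts use the same E library and their difference was not tested. The 10 highest of EM3 over E include 2 features marked as deprecated. Over the 45 such features, Arg1-side cells summed to 370.0 to 423 CPM in E, EM1 and the parental tumour and 677 to 700.3 in EM2, EM3 and M. These are also the 2 groups that share the most frequent sequence of the second barcode part. The same features summed to 670.9 to 735 CPM in the 6 Total libraries. The part of that barcode sequence in the 2 features was not tested.

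EM2 and EM1, the other pair that shares barcodes, differed least of the 3 pairs compared: of 3796 genes, 4 (0.105%) were at least 2-fold higher in EM2 and 10 (0.263%) lower. The list of resident and scavenger genes had 2 of 16 lower to that extent, Mgl2 (-1.15) and Cd36 (-1.12). Among the genes with the widest range over the 6 tumours were Igkc and Ighg1, which encode antibody chains. Igkc stood at 29.1 CPM in E and 2.61 in EM3, 109 in EM1 and 20.6 in EM2, 0.927 in M and 2.46 in the parental tumour in Arg1-side cells, and EM1 also had the highest sum of the 6 B cell markers there, 28.6 CPM against 4.07 to 9.94 in the other tumours. The part of plasma cell RNA in these values was not tested.

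Across the tumours, 6 measures were set against the Arg1-side share over the 6 tumours, with two-sided exact permutation tests over all 720 pairings and Benjamini-Hochberg adjustment over the 6 relations. The share in the Total library was close to that in the CD45 library (Pearson's r = 0.968, Spearman's rho = 1; r = 0.978 without E and EM1, the tumours farthest from the median of the Total share). Both are the rule's own measure in the same tumours, so this is given as a description with no p-value. The EMT score of tumour cells, the mean log2 level of mesenchymal minus epithelial genes, ran from -2.16 in E over 0.955 in the parental tumour, 1.29 in EM1, 1.87 in EM2 and 2.78 in M to 3.29 in EM3.

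Its relation to the share gave r = -0.481 (exact p = 0.353, adjusted p = 0.928; rho = -0.257, exact p = 0.658), -0.384 without E and EM3, and 0.452 without E alone, so its direction turned when E alone was left out. The hypoxia and glycolysis score of tumour cells (r = -0.143, rho = -0.0286), the granulocyte share (r = -0.0534, rho = 0.143), the share of CD8 T cells (r = 0.279, rho = -0.0857) and the median UMIs per macrophage (r = 0.200, rho = 0.143) had exact p-values of 0.551 to 0.928 for r and 0.803 to 1 for rho, and all adjusted values were 0.928 for r and 1 for rho. Without the 2 farthest tumours, their r became 0.463, 0.811, 0.0759 and 0.541. A relation within an inferred well cannot be had, since none holds over 2 tumours, and with 6 tumours only very strong relations can pass.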

How the data were processed

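Single cells of 6 tumours were measured in 12 libraries, and the tables give raw UMI counts per gene and cell as the authors deposited them. Per the submitters' processing notes, Cell Ranger and mm10 were used; its version, the reference for the probes and the limits by which cells were kept are not given in the sources used here. The labels name both a fixed-RNA kit and 3′ reagents. Per the file headers, the metadata hold UMI and gene counts, the mitochondrial fraction and percent of UMIs of each cell, the authors' annotation and the ImmGen label. The labels give no replicate tumours. Scrublet (scanpy 1.11.5) marked 3754 of 115612 cells (3.25%) as doublets, at the median valley of its simulated scores (0.227), and these were left out.

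UMIs of Arg1-side and Mrc1-side cells were summed per tumour and scaled to CPM, genes with at least 50 CPM were compared as log2(CPM + 10), and 2-fold was the limit. Calculations used Python 3.11.15, numpy 2.4.6, pandas 2.3.3 and scipy 1.17.1, and the gene comparison was checked on simulated counts. Named genes were the 15 with the highest and the 15 with the lowest median ratio between sides among those of 1 sign in all 6 tumours, the 15 with the widest range over tumours, the 10 highest and 10 lowest of M over E and of EM3 over E, up to 8 of each gene list and the 8 most like the first sum, of which 1 is not reported here. Nos2, Plaur, Hk2, Cd86, Cd36 and the list members named in contrasts of tumours were named after their values had been seen. The rule's genes, the cells and the gene lists were chosen with earlier results of these data known. Alternatives were doublets kept, a minimum of 500 genes per cell, cells thinned to 1000 UMIs, an excess of at least 3 UMIs, Arg1 or Mrc1 left out, the Total libraries, another pseudocount, filter or scaling, and each tumour left out.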

Additional observations from a re-analysis of the deposited data

How the results depend on the processing

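No paired analysis between clones was possible because the labels give 1 tumour per group. The sides and both libraries are paired within each tumour and were set beside each other there, with no test. Of 87 recomputed shares, differences and counts of genes, 76 stayed within counting error, 1 SD or 1.5 times the first count. These limits are wide: 1 SD of the share over tumours was 20.8 points, and leaving out 1 tumour could not move the mean that far. Genes required to differ in every tumour could hardly become fewer when a tumour was left out. The tally therefore does not test how firm the results are. Of 48 recomputed correlations, 43 kept their sign, some with large changes of r. The difference of M from E in the Arg1-side share was -47.2 points and became -49.5 in the Total libraries, -44.3 with the T cell level subtracted and -50.5 in cells labelled Macrophages, the last 2 settings having been chosen after the data were seen. The difference of EM3 from E, -11.2 points, became -13.4 without Arg1, -9.26 without Mrc1 and -23.6 in the Total libraries. The 27 genes lower on the Arg1 side became 15 in the Total libraries (11 of them among the 27) and 16 with size factors from gene-wise ratios (all among the 27), and the 74 genes higher in M than E became 43. In the Total libraries 37 genes were higher and 52 lower in EM3 than E (12 and 15 of them among the first calls), against 17 and 25. Leaving out each tumour in turn gave a mean share of 50.8 to 61.4%, 47 to 55 higher and 27 to 35 lower genes, and an r with the Total share of 0.961 to 0.990. The other correlations, none of which passed the adjusted threshold with all 6 tumours, ranged from -0.900 to 0.452 for the EMT score (the latter without E), -0.576 to 0.758 for the hypoxia and glycolysis score (the latter without E), -0.343 to 0.759 for the granulocyte share (the latter without M), 0.0655 to 0.810 for CD8 T cells and -0.0668 to 0.597 for median UMIs (-0.0668 without EM3, -0.0444 without EM1). The cause of these changes was not tested. With 1 tumour per clone, the spread between tumours of a clone is unknown, and depth limits genes below 50 CPM.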

Other observations

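Several gene lists were not described above. Of 11 genes of immune suppression and checkpoints tested, 6 were higher and 3 lower on the Arg1 side in all 6 tumours, beside 28% and 38.2% of all genes, with a median log2 ratio of 0.43. The ectonucleotidase Nt5e, which makes adenosine, had a median log2 ratio of 1.25, the myeloid receptor Trem1 1.07, Pdcd1lg2 0.70 and Cd274 0.64, while Il18bp, the inhibitor of interleukin-18, stood at -0.71. Of 9 growth factor genes tested, 4 were higher and 3 lower in all 6 tumours, with a median of 0.08, and 6 of 10 and 3 of 10 with size factors from gene-wise ratios. The epidermal growth factor receptor ligand Areg was the 1 at least 2-fold higher in every tumour, beside 1.13% of all genes, and averaged under 50 CPM on the Mrc1 side. It stood at 227 CPM in E and 96.7 in EM3, 132 in EM1 and 135 in EM2, 48.4 in M and 107 in the parental tumour, against 9.2 to 90.4 CPM on the Mrc1 side. Areg was also lower in M than E (-2.02, Total -1.52) and in EM3 than E (-1.15, Total -0.61). Pdgfa, a platelet-derived growth factor chain, ran the other way between the sides (-1.13).

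In the preceding and following counts, the shares of all genes higher and lower in all 6 tumours were 28% and 38.2%, and 44.7% and 24% with size factors from gene-wise ratios. Of 9 iron and haem genes, 5 were higher and 2 lower in all 6 (5 and 1 with those size factors), the cystine transporter Slc7a11 differing most (0.96), and none reached 2-fold in every tumour. Of 14 lipid-associated genes, 4 were higher and 5 lower in all 6, with a median of -0.15, near the shares of all genes; with those size factors the counts were 6 of 15 and 4 of 15 and the median -0.03. Of 28 transcription factors, 9 were higher and 12 lower in all 6, with a median of -0.08, near the shares of all genes; with those size factors 11 of 29 were higher and 7 lower, with a median of 0.06. Bhlhe41 (-1.58), Klf2 (-1.07) and Cebpa (-1.06) had the largest differences. Only 2 of 20 cell division genes reached the level for comparison, Stmn1 (-0.92) and Pcna (0.0). The dendritic cell marker Ccr7, which guides cells to lymph nodes, stood at 49 CPM in E and 30.2 in EM3, 96 in EM1 and 59.8 in EM2, 66.2 in M and 69.2 in the parental tumour in Arg1-side cells, against 7.9 to 15.7 CPM on the Mrc1 side. Of 4 granulocyte markers tested, 2 were higher in all 6 tumours, beside 28% of all genes, and none reached 2-fold in every tumour. Their median log2 ratios were 1.41 for Il1r2, a decoy receptor of interleukin-1, 0.81 for S100a8, 0.50 for S100a9 and -0.004 for Csf3r. Il1r2 averaged 392 CPM on the Arg1 side, 1354 in granulocytes and 1074 in dendritic cells.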
